A study of Oryza sativa with 17 samples.

Results

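Hulled grains of Yuhongdao 5815, a red rice (RR), were compared at 15 days after flowering (DAF) between plants given a foliar iron spray (Fe treatment) and plants sprayed with deionized water (control). The data were FPKM values, which are fragments counted on a gene per length of transcript and per unit of sequencing depth, so that levels can be compared between genes. The genes described were those with an FPKM of at least 1 in 2 or more of the 5 libraries of this comparison. They numbered 16680 of the 32657 genes of the table, 1458 of them new genes of the assembly without an annotation ID. A further 1728 genes reached FPKM 1 in a single library and stayed outside the rule.

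The 5 libraries were control replicates 2 and 3 and Fe replicates 1, 2 and 3. Replicate 1 of the control at 15 DAF is not analysed here. All plants were grown in pails under natural conditions and sprayed after sunset at the end of booting and again 7 d later, and a replicate was a set of pails. The foliar solutions also held nicotinamide (0.5%), an enhancer of iron uptake, and the surfactant Tween 80 (0.005%). The study used iron sulfate at 0.1% and 0.2%. Its network analysis took the differentially expressed genes of the 0.1% treatment, which would make 0.1% the dose sequenced, while the labels of the libraries say only Fe. The series also holds control and Fe libraries of RR at 20 DAF, used below for comparison, and of black rice. Each RNA sample came from whole hulled grains, so fewer cells of a type and less RNA of that type per cell cannot be told apart.

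A rice grain at this age is filling. The starchy endosperm makes starch from sucrose that the mother plant delivers, and it packs glutelins and prolamins into protein bodies after their folding in the endoplasmic reticulum. The aleurone, the outer living cell layer of the endosperm, stores oil and minerals and later switches on a desiccation programme. Iron reaches the grain through the phloem and is moved across membranes by transporters of the YSL, NRAMP and VIT families. Free iron reacts with hydrogen peroxide to form hydroxyl radicals, and catalases and peroxiredoxins remove that peroxide. Red rice owes its colour to proanthocyanidins, flavonoids of the pericarp and seed coat.

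Fe replicate 1 stood with the controls and not with the other Fe libraries. Over the 16680 genes, its Pearson correlation on the log2(FPKM + 1) scale was 0.964 with control replicate 2 and 0.933 with control replicate 3, above the 0.902 between the controls themselves. With Fe replicates 2 and 3 it was only 0.798 and 0.841, whereas these correlated at 0.949 with each other and at 0.775 to 0.880 with the controls. The genes share library and depth, and these values are descriptions. On the first principal component, which held 70.01% of the variance, the controls lay at -58.8 and -37.0, Fe replicate 1 at -60.0 and Fe replicates 2 and 3 at 97.1 and 58.6. The difference between treatment and control means took 28.83% of the sum of squares, where 25.0% is the share without any effect.

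Gene by gene, Fe replicate 1 differed little from the mean of the controls, with a median difference of -0.01 on the log2 scale, an SD of 0.392 and 341 genes (2.04%) more than 1 away. In Fe replicate 2 the median difference was 0.705, and 5498 genes lay more than 1 above the control mean against 1065 below. In Fe replicate 3 the median difference was 0.329, with 2731 genes above and 1150 below. Each control lay more than 1 from the control mean in 360 genes (2.16%), though that mean includes it. Between single libraries, the controls differed from each other by more than 1 in 2390 genes (14.3%). On that measure Fe replicate 1 differed from control replicate 2 in 628 genes (3.76%) and from control replicate 3 in 1523 (9.13%). Fe replicate 1 lay between the controls in 7960 genes (47.7%) and closer to the control mean than to the mean of the other Fe libraries in 13848 (83.0%).

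**Figure D1:**
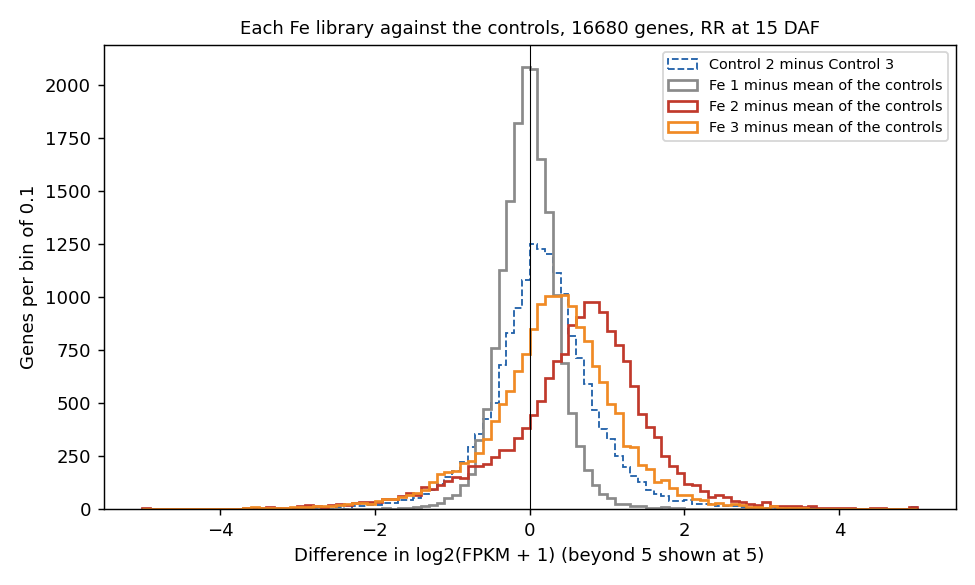
Histogram of the difference in log2(FPKM + 1) between each Fe library and the mean of the 2 controls over 16680 genes, in bins of 0.1, with the difference between the controls as a dashed line. The curve of Fe replicate 1 is narrow and centred near 0, while those of Fe replicates 2 and 3 are broad and lie to the right, with medians of 0.705 and 0.329.

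Fe replicates 2 and 3 also stood closer to the later stage. Their mean correlation with the 6 RR libraries at 20 DAF was 0.872 and 0.891, against 0.722 and 0.755 for the controls and 0.734 for Fe replicate 1. The 10 most abundant genes took 34.3% and 38.4% of all FPKM in the controls, 38.7% in Fe replicate 1, and 19.5% and 22.1% in Fe replicates 2 and 3, beside 9.28% to 17.2% at 20 DAF. The FPKM values of a library summed to between 650114 and 679747. A library with less of its FPKM in the top genes has more left for the others, and the median log2 level of the members was 3.27 and 2.89 in Fe replicates 2 and 3 against 2.51 to 2.70 in the other libraries.

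**Figure D2:**
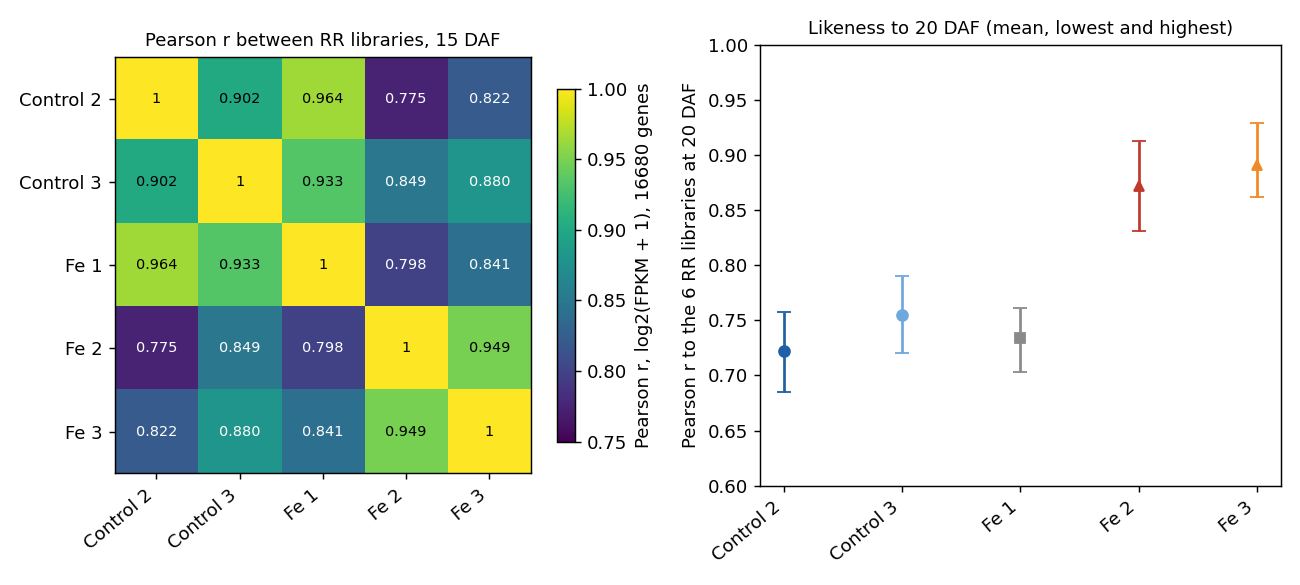
Left, Pearson correlation of log2(FPKM + 1) over 16680 genes between the 5 RR libraries at 15 DAF. Right, correlation of each library with the 6 RR libraries at 20 DAF, with the point at the mean and bars from the lowest to the highest, where Fe replicates 2 and 3 reach means of 0.872 and 0.891 and the other libraries 0.722 to 0.755.

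Marker genes of the grain tissues differed between the same libraries. The summed FPKM of 9 endosperm markers (glutelins, a prolamin, GBSS-I and an NF-Y factor) was 114719 and 153242 in the controls, 129777 in Fe replicate 1, and 31018 and 32706 in Fe replicates 2 and 3. The 6 aleurone markers were the lipid transfer genes LTP, LTP-2, LTP2-A and LTP2-B with OsVIT1.2 and GAM1. They summed to 5113, 12889, 7030, 26225 and 29768 in the same order. LTP110-A, a lipid transfer gene not among them, was at 21.1, 0, 3.97, 0 and 0 FPKM. The 4 markers of maturing seed summed to 3130, 3157, 2498, 5013 and 9447. Their mean log2(FPKM + 1) was 7.763, 6.782, 7.26, 6.315 and 8.129. Fe replicate 2 was thus above the controls by the sum and lowest of all by the mean. The 4 embryo markers summed to 4469 to 4643 in all libraries except Fe replicate 3, at 10392. The 6 pericarp and seed coat markers summed to 179 to 274, and most of that was MFT1, at 133 to 239 FPKM. Of the others, CHS was lower and CAO higher in Fe replicates 2 and 3 than in the controls. This sum therefore does not show that these tissues were alike in the libraries. The 4 leaf markers summed to 3.81 to 11.9. No marker was at 0 in any of the 5 libraries. The grain label thus held, with very little leaf signal. Many markers are themselves genes of the lists below, such as the glutelins, GBSS-I and the lipid transfer genes. Their sums therefore move with those lists by construction. In Fe replicate 2, LTP (18190 FPKM) and LTP-2 (7910 FPKM) made up most of the aleurone sum. The NF-Y factor, NF-Y4, was higher in all Fe libraries, unlike the endosperm sum. The part of the marker sums in the results below was not tested.

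**Figure D3:**
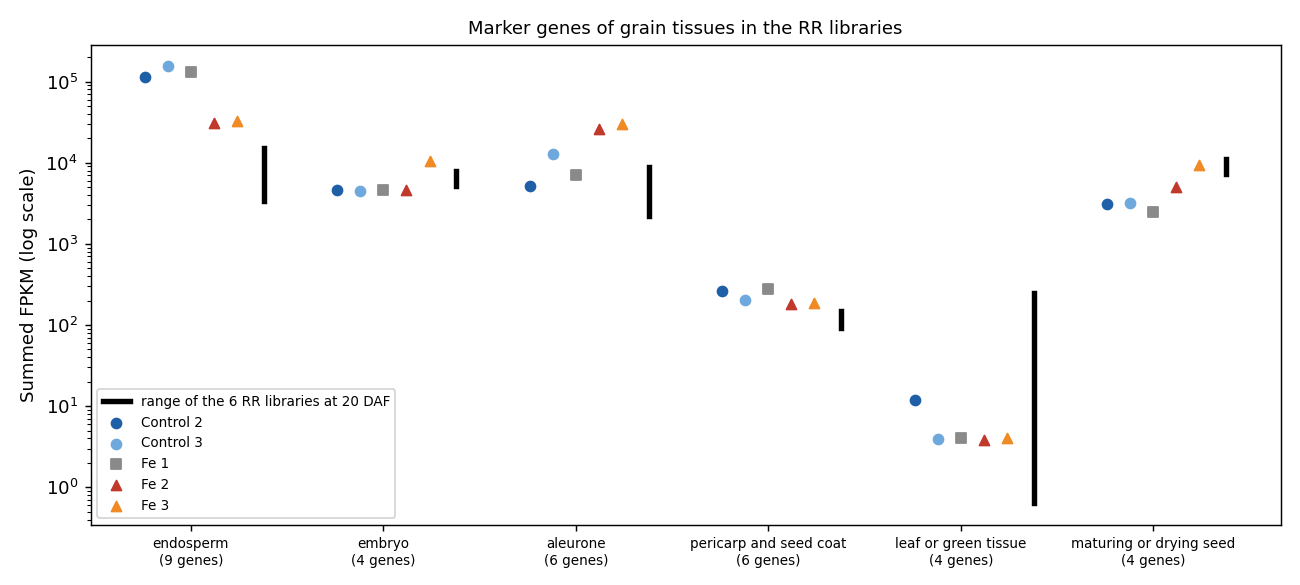
Summed FPKM, on a log axis, of marker genes of each grain tissue in the 5 RR libraries at 15 DAF, with the range of the 6 libraries at 20 DAF as a black bar. Fe replicates 2 and 3 are below the other libraries for endosperm (31018 and 32706) and above them for aleurone (26225 and 29768).

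No gene passed the test between Fe treatment and control with all 5 libraries. In limma's fit no member reached an adjusted p below 0.01 with a fold change of at least 1.5, the threshold for differentially expressed genes (DEGs), in either direction (0.0% of members each). The lowest adjusted p was 0.595, and none was below 0.05 or 0.1. At an unadjusted p below 0.05 there were 1276 members (7.65%) higher and 300 (1.8%) lower under Fe treatment. The 5 libraries did not overlap between groups in 2275 members (13.6%) on the higher side and in 446 (2.67%) on the lower side. Each log2 change below is the Fe mean minus the control mean of log2(FPKM + 1) with its SE, from 3 Fe and 2 control libraries, and its adjusted p was at least 0.595. The median change over all members was 0.339 (0.157 without Fe replicate 2 and 0.521 without Fe replicate 1). With each library centred on its own median it was 0.067, and the share of members above 0 went from 74.8% to 55.6%. Changes of gene groups are therefore read against that median, and counts above or below 0 against the 12482 members above 0 and the 4198 below. Among all 19774 genes tested, centring turned the split at an unadjusted p below 0.05 from 1300 higher and 314 lower into 673 and 779.

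Without Fe replicate 1 the outcome was another one. The fit of Fe replicates 2 and 3 against the controls gave 480 members higher (2.88%) and 186 lower (1.12%) at the DEG threshold, and 2164 (13.0%) and 463 (2.78%) at an adjusted p below 0.05. At an unadjusted p below 0.05 it had 4978 higher (29.8%) and 992 lower (5.95%), and Fe replicates 2 and 3 lay above both controls in 8868 members (53.2%) and below both in 1916 (11.5%). Of these 2627 members, Fe replicate 1 was closer to the control mean in 2566 (97.7%). Leaving out Fe replicate 2 or Fe replicate 3 in turn gave no DEG. Leaving out control replicate 2 gave none either, and leaving out control replicate 3 gave 17 genes lower and none higher, where the control left is assumed to vary like the other libraries. Fe replicate 1 is the Fe library that lay with the controls, so every adjusted p without it is conditional on dropping the treated library that went against the difference. Such a p sets Fe replicates 2 and 3 against the controls and is no test of the treatment over all its libraries, by which no gene is called. Genes that "passed" without Fe replicate 1 had an adjusted p below 0.05 in that fit. In the sentences below a pair of FPKM values stands for control replicates 2 and 3, and 3 values stand for Fe replicates 1, 2 and 3 in that order.

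Storage protein genes had the highest summed level of the 38 gene lists and were lower in Fe replicates 2 and 3. The list of endosperm storage proteins and seed allergens had 13 genes, all members, and 12 of them had a log2 change below 0. Its summed FPKM was 147698 and 191424 in the controls and 166960, 47705 and 51461 in the Fe libraries. The median log2 change was -1.43, against 0.34 over all members, and 4 of the 13 were lower at an unadjusted p below 0.05, where 1.8% of all members were. In the fit without Fe replicate 1 the median was -2.25 and 5 of the 13 passed on the lower side, where 2.78% of all members did.

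GLUA-3 (LOC4333164), an A-type glutelin gene, was the storage gene with the smallest p. It was at 6007 and 5000 FPKM in the controls and at 4087, 569.6 and 482 in the Fe libraries, and it was the only gene of the list in which all 3 Fe libraries lay below both controls. Its log2 change was -2.40 ± 0.82 (limma, adjusted p = 0.595). In the fit without Fe replicate 1 it was lower, with a log2 change of -3.38 ± 0.64 (limma, adjusted p = 0.0045). At 20 DAF the mean of the 6 RR libraries was 69.8 FPKM. The most abundant glutelin gene, GLUA-1 (LOC4327027), was at 29880 and 55310 FPKM against 35680, 7638 and 8136. Its controls lay far apart, and its log2 change of -1.64 ± 1.10 passed neither test (adjusted p = 0.1 without Fe replicate 1). GLUA-2 was at 20330 and 30600 FPKM against 23080, 3982 and 4279, again with Fe replicate 1 between the controls, with a log2 change of -1.77 ± 0.96 (without that library -2.60 ± 0.79, adjusted p = 0.041).

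The B-type glutelins showed the same order. GLUB-4 was at 4556 and 5305 FPKM in the controls and 5126, 662 and 442 under Fe treatment, and GLUB-5 at 6831 and 7604 against 7307, 908 and 635. In both, Fe replicate 1 lay between the controls and the other Fe libraries were far below. These genes are close copies, and reads may be split between them, so their separate values are uncertain. GLUB-2, at 219.9 and 189.7 FPKM against 261, 10.6 and 28.0, had a log2 change of -2.20 ± 0.92 with all libraries and of -3.48 ± 0.70 without Fe replicate 1 (adjusted p = 0.0058). The prolamin gene LOC4342688, of a multigene family, had the highest mean level of the genes named here. It was at 45360 and 47920 FPKM against 52110, 16990 and 18490, and its log2 change of -0.88 ± 1.06 did not pass either test (adjusted p = 0.31 without Fe replicate 1). RA14, a seed allergen of the alpha-amylase inhibitor family, was at 8584 and 12790 FPKM against 9893, 6609 and 7596, with overlapping groups. Its log2 change of -0.40 ± 0.96 became 0.18 with quantile normalization.

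Genes of starch synthesis were lower in the same libraries, to different extents. All 7 members of the list had a log2 change below 0, with a median of -1.21. At an unadjusted p below 0.05, 3 were lower, where 1.8% of all members were. In Fe replicate 1 the list was at its highest, with a summed FPKM of 6611 against 5049 and 5652 in the controls and 2551 and 1735 in Fe replicates 2 and 3. No gene of the list separated the groups. Leaving out Fe replicate 1 moved the median to -1.94, with 4 genes passing on the lower side, where 2.78% of all members did. Leaving out Fe replicate 3 moved the median to -0.70.

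ISA (LOC4346068), the isoamylase that trims branched glucan during starch assembly, was at 145 and 167 FPKM in the controls and 234, 7.15 and 4.43 in the Fe libraries. Fe replicate 1 was the highest of all 5 libraries, and the other Fe libraries were far below the controls. Its log2 change was -2.84 ± 0.93, and -4.56 ± 0.49 without Fe replicate 1 (limma, adjusted p = 8.6e-05). GBSS-I (LOC4340018), the granule-bound starch synthase that makes amylose, was at 1531 and 1297 FPKM against 2107, 189 and 200.4. Here too Fe replicate 1 lay above both controls. The change was -1.71 ± 0.74 with all libraries and -2.85 ± 0.48 without Fe replicate 1 (adjusted p = 0.0024), and the mean at 20 DAF was 69.5 FPKM. ALK, a soluble starch synthase of amylopectin, followed with 144 and 162 FPKM against 202, 19.7 and 22.9 and a log2 change of -1.73 ± 0.60 (without Fe replicate 1 -2.79 ± 0.34, adjusted p = 2.3e-04). AGPS2, a small subunit of ADP-glucose pyrophosphorylase, the enzyme that makes the substrate for starch, was at 1379 and 1521 against 1729, 459.6 and 308 FPKM. Its Fe replicate 1 was the highest library as well, and its log2 change was -1.21 ± 0.68 (adjusted p = 0.031 without that library).

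The other enzymes of the list were less different. Q-enzyme, the starch branching enzyme, was at 1608 and 2254 FPKM against 1999, 1718 and 1070, and its groups overlapped. SS1, another soluble starch synthase, was at 235 and 247 against 332, 155 and 125 FPKM, with a log2 change of -0.37 ± 0.45. Neither passed a test.

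Sucrose use gave single genes rather than a group. The 13 members of the sucrose synthase, sucrose phosphate synthase and invertase list split into 7 above and 6 below 0. OsSUS2, a sucrose synthase, was at 102 and 62.1 FPKM in the controls and 131, 17.1 and 13.6 in the Fe libraries, with a log2 change of -1.30 ± 0.62 (without Fe replicate 1 -2.31 ± 0.40, adjusted p = 0.0026). Fe replicate 1 was its highest library. OsSUS4, the most abundant of the list, was at 405 and 491 against 480.4, 309.9 and 278 FPKM and did not pass a test. Maltase (LOC4341824), an alpha-glucosidase gene of the starch breakdown list, was at 1460 and 1786 FPKM against 1632, 211 and 231. Its change was -1.91 ± 0.66 and -2.87 ± 0.46 without Fe replicate 1 (adjusted p = 0.0018).

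Sugar transporters had a median log2 change of 0.50 over 12 members (0.33 without control replicate 2), with 8 above 0 and 4 below. Os11N3 (LOC4350572) was the only one with all Fe libraries below the controls, at 12.4 and 9.40 FPKM against 0.985, 2.29 and 0.587. Its Fe replicate 1 lay between the other Fe libraries. The log2 change was -2.44 ± 1.37, and it passed no test (limma, adjusted p = 0.22 without Fe replicate 1). OsSWEET4, a sugar exporter of the filling grain, was at 19.7 and 82.0 FPKM in the controls and 33.3, 365 and 164 under Fe treatment. The controls lay far apart, Fe replicate 1 lay between them, and both other Fe libraries lay above. Its log2 change was 1.62 ± 0.85 (without Fe replicate 1 2.57 ± 0.71, adjusted p = 0.028). OsSUT1, a sucrose transporter of the aleurone and the phloem, was at 15.8 and 64.3 against 42.5, 102 and 113 FPKM and did not pass without Fe replicate 1 either (log2 change 1.27 ± 0.66 with all libraries, adjusted p = 0.065 without Fe replicate 1). Of the enzymes that remove phosphate from trehalose phosphate, a signal of sugar status, OsTPP2 was at 15.9 and 10.7 FPKM against 15.0, 1.54 and 0.839 and OsTPP7 at 4.14 and 7.78 against 3.25, 26.2 and 18.8. They went in opposite directions in Fe replicates 2 and 3. The log2 change of OsTPP2 was -1.74 ± 0.61 (adjusted p = 0.0013 without Fe replicate 1) and that of OsTPP7 0.97 ± 0.65 (adjusted p = 0.031 without Fe replicate 1).

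Folding in the endoplasmic reticulum, which storage proteins pass through, gave the named gene with the lowest log2 change without Fe replicate 1. BIP1 (LOC4328075), the chaperone of that compartment, was at 1016 and 665 FPKM in the controls and at 838, 17.6 and 54.8 in the Fe libraries. Fe replicate 1 lay between the controls, and Fe replicates 2 and 3 lay far below them. The log2 change was -3.11 ± 0.86 and -4.67 ± 0.50 without Fe replicate 1 (limma, adjusted p = 7.9e-05). The mean at 20 DAF was 7.35 FPKM. OsPDIL2-3, a protein disulfide isomerase, was at 29.7 and 23.3 FPKM against 26.2, 2.74 and 10.3, with a log2 change of -1.38 ± 0.52 (adjusted p = 0.008 without Fe replicate 1). OsPDIL1-1, another isomerase, was at 359 and 232 against 292, 105 and 161 FPKM, with a log2 change of -0.76 ± 0.66.

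The wider list of chaperones did not move as one. Of its 31 members, 24 lay above 0, where 74.8% of all members did. At an unadjusted p below 0.05, 1 was higher and 3 were lower, against 7.65% and 1.8% of all members. Without Fe replicate 1, 5 passed on the higher and 3 on the lower side, against 13.0% and 2.78% of all members. Its median was 0.35, near that of all members (0.59 without control replicate 2 and 0.67 without Fe replicate 1). DJB6, a DnaJ-type co-chaperone, was at 78.4 and 75.8 FPKM against 103, 13.4 and 16.0 (log2 change -1.41 ± 0.58 with all libraries, adjusted p = 0.0023 without Fe replicate 1). DJA6, a DnaJ-type protein of another class, was at 248 and 192 against 224, 797 and 542 (log2 change 1.07 ± 0.57 with all libraries, adjusted p = 0.043 without Fe replicate 1). Both DnaJ genes kept Fe replicate 1 on the side of the controls.

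**Figure D4:**
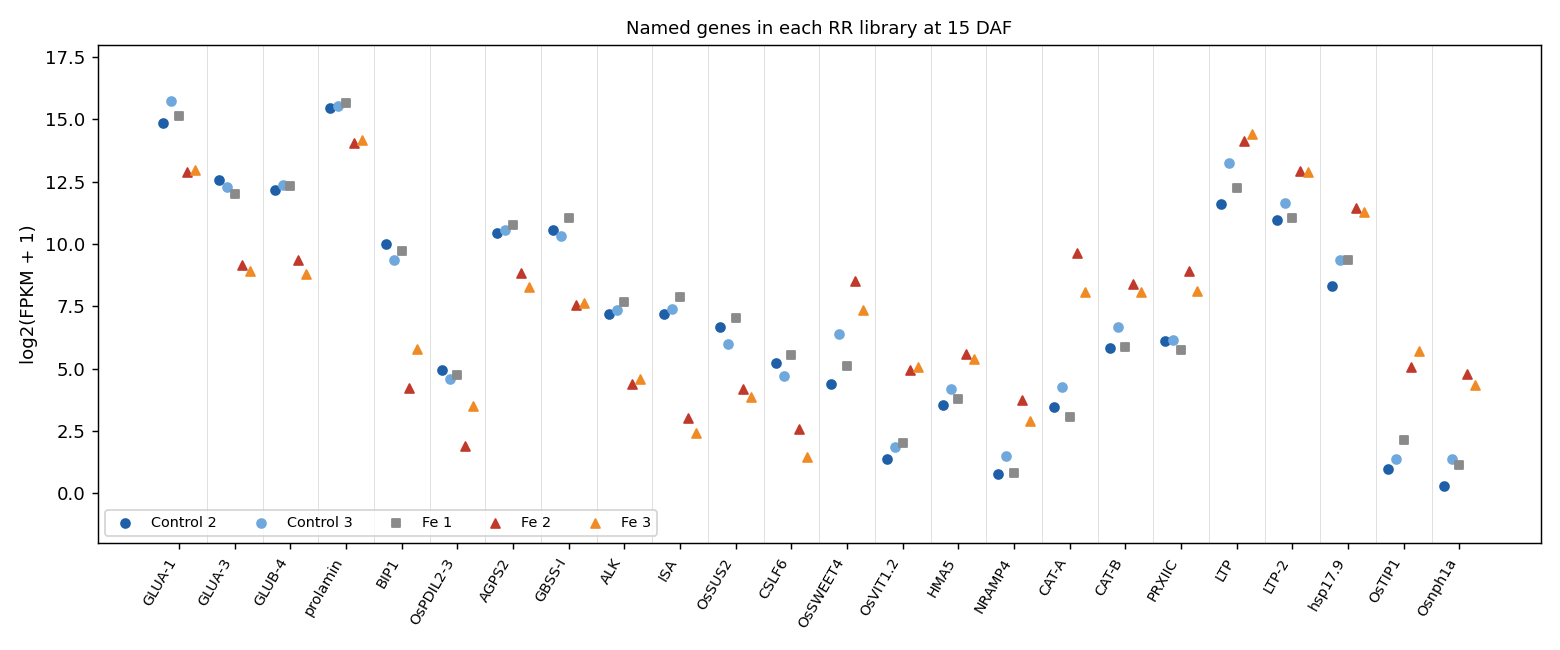
Log2(FPKM + 1) of 24 named genes in each of the 5 RR libraries at 15 DAF. From GLUA-1 to CSLF6 Fe replicates 2 and 3 (triangles) lie below the controls (circles), from OsSWEET4 on they lie above, and Fe replicate 1 (squares) lies with or near the controls.

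Iron and metal handling genes were higher on balance, by little more than the median of all genes. Of 58 genes listed, 30 were members, and 24 of these lay above 0, where 74.8% of all members did. The median log2 change was 0.49 (0.21 with centred libraries and 0.31 without Fe replicate 2). Of the 30, 2 were higher at an unadjusted p below 0.05, where 7.65% of all members were, and none was lower. The groups separated in 5 genes on the higher side and 1 on the lower side, against 13.6% and 2.67% of all members. Once Fe replicate 1 was left out, 5 passed on the higher side, where 13.0% of all members did, and none on the lower side. These counts were near the shares over all members.

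OsVIT1.2 (LOC4346978), also named OsVIT2, a vacuolar iron transporter that is expressed in the aleurone among other tissues, had the largest change of the list. It was at 1.57 and 2.59 FPKM in the controls and at 3.06, 30.0 and 32.2 in the Fe libraries. All 3 Fe libraries lay above both controls, Fe replicate 1 by a small margin and the others by a wide one. The log2 change was 2.41 ± 0.67 and 3.40 ± 0.47 without Fe replicate 1 (limma, adjusted p = 5.7e-04). At 20 DAF the mean was 9.01 FPKM, so that Fe replicates 2 and 3 stood above that mean. The gene is 1 of the 6 aleurone markers whose sum was higher in the same libraries.

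HMA5, a copper-transporting P-type ATPase, was at 10.5 and 17.4 FPKM against 12.9, 47.8 and 41.3. Fe replicate 1 lay between the controls, and the log2 change was 1.07 ± 0.43 (without that library 1.64 ± 0.32, adjusted p = 0.005). NRAMP4, a member of the NRAMP metal transporter family, was at 0.71 and 1.82 against 0.75, 12.5 and 6.45 FPKM (log2 change 1.35 ± 0.65 with all libraries, adjusted p = 0.013 without Fe replicate 1). MTP7, a metal tolerance protein of the cation diffusion family, was at 31.4 and 39.4 FPKM against 36.1, 103 and 50.5 and passed no test. tom1 (LOC4330406), which entered the list by its short name alone, was at 27.9 and 28.1 against 28.1, 53.6 and 43.8 FPKM. Whether it handles iron was not checked. Fe replicate 1 barely exceeded the controls, and the log2 change was 0.52 ± 0.33 (adjusted p = 0.086 without that library). OsYSL2, a transporter of iron and manganese chelated by nicotianamine, was at 20.6 and 28.6 against 28.5, 52.5 and 44.0 FPKM, with overlapping groups. OsYSL14, of the same family, was the 1 gene of the list with all Fe libraries below the controls, at 2.28 and 2.17 FPKM against 0.461, 0.778 and 0.591. Its log2 change was -1.01 ± 0.48, and here Fe replicate 1 was the lowest library of all. It met the rule through the controls alone.

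Antioxidant enzymes had the highest median change of the 38 lists with all libraries. All 18 members lay above 0, with a median log2 change of 0.88 (0.61 with centred libraries), and 6 of them were higher at an unadjusted p below 0.05 where 7.65% of all members were. Fe replicate 1 did not share this: the summed FPKM was 1574 and 1901 in the controls, 1592 in Fe replicate 1, and 5129 and 5574 in Fe replicates 2 and 3. The groups separated in only 1 gene, where they did on the higher side in 13.6% of all members. Without Fe replicate 1 the median was 1.40 and 9 of the 18 passed on the higher side, where 13.0% of all members did.

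CAT-A (LOC4328073), a catalase, which breaks down hydrogen peroxide, was at 10.0 and 18.3 FPKM in the controls and at 7.29, 795 and 267 in the Fe libraries. Fe replicate 1 was the lowest of the 5 libraries and Fe replicate 2 the highest. The log2 change was 3.05 ± 1.14, and 4.99 ± 0.72 without Fe replicate 1 (limma, adjusted p = 8.9e-04), the highest log2 change without that library among the named genes. The mean at 20 DAF was 810.3 FPKM. CAT-B, a second catalase, was at 56.4 and 101 against 56.9, 334 and 272 FPKM and PRXIIC, a peroxiredoxin, at 68.0 and 71.0 against 52.4, 483 and 276. In both, Fe replicate 1 lay at the low end of the controls or below them, and the log2 changes were 1.19 ± 0.55 and 1.45 ± 0.60 (adjusted p = 0.005 and 0.0028 without that library). MDAR2, a monodehydroascorbate reductase that regenerates ascorbate, was at 5.71 and 4.94 FPKM against 5.57, 27.0 and 19.6 (log2 change 1.30 ± 0.51 with all libraries, adjusted p = 0.0073 without Fe replicate 1). SODCC.2, a copper/zinc superoxide dismutase, was at 127 and 213 against 162, 385 and 978 FPKM, with Fe replicate 3 far above Fe replicate 2. Its log2 change was 1.25 ± 0.60 (adjusted p = 0.027 without Fe replicate 1). R1C-Prx, the abundant peroxiredoxin of aleurone and embryo, was at 949 and 1077 FPKM against 959.9, 2205 and 2770 and did not pass a test.

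Of the 6 lipid transfer protein genes, 4 had a log2 change above 0 and 2 below, where 74.8% of all members lay above. None passed in either fit. LTP, a lipid transfer protein of the aleurone, was at 3079 and 9637 FPKM in the controls and 4886, 18190 and 22090 in the Fe libraries. The controls alone lay far apart, and neither fit called it (adjusted p = 0.71 with all libraries and 0.23 without Fe replicate 1). LTP-2 was at 2020 and 3221 against 2131, 7910 and 7594 FPKM, with Fe replicate 1 between the controls and no call. LTP110-A went the other way, at 21.1 and 0 FPKM against 3.97, 0 and 0. The 6 lipid transfer genes summed to 5133 and 12883 FPKM in the controls and to 7028, 26173 and 29727 under Fe treatment, nearly all of it from LTP and LTP-2.

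Seed maturation genes, which protect the embryo and aleurone during drying, showed no common direction. Of 12 members 8 lay above 0, the median was 0.16 (-0.11 with centred libraries), and none passed a test in either fit. With control replicate 3 left out the median was 0.05, and with control replicate 2 left out 0.56. It was 0.45 in the absence of Fe replicate 2 and -0.11 in that of Fe replicate 3. RAB21, a dehydrin, was at 1243 and 1706 FPKM against 1121, 2703 and 5843, and OLE18, an oil body oleosin, at 1554 and 1816 against 1424, 1799 and 4663. Fe replicate 3 was the highest library for both. EM, a late embryogenesis abundant protein, was at 1193 and 1196 against 1806, 479.5 and 2114 FPKM, with Fe replicate 2 lowest and Fe replicate 3 highest. Its log2 change of 0.03 ± 0.93 turned to -0.24 with centred libraries. OsVP1, the regulator of seed maturation that mediates abscisic acid (ABA) responses, was at 27.3 and 22.8 against 24.1, 57.7 and 46.3 FPKM and passed no test.

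Small heat shock proteins, chaperones that accumulate in drying seeds and under heat, summed to 1683 and 1928 FPKM in the controls and to 2328, 4484 and 5343 in the Fe libraries, so that Fe replicate 1 was above the controls too. Of 16 members 15 lay above 0, with a median log2 change of 0.69 (0.43 without Fe replicate 3), and the groups separated in 5 of the 16 on the higher side, where they did in 13.6% of all members. hsp17.9 was at 320.1 and 653 FPKM against 666, 2827 and 2492. Fe replicate 1 was just above the higher control and the others far above it. Its change was 1.87 ± 0.83 and 2.54 ± 0.72 without Fe replicate 1 (adjusted p = 0.031), with a mean of 6568 FPKM at 20 DAF. Without Fe replicate 1 only 1 gene of the list passed, on the higher side, where 13.0% of all members did. The heat shock transcription factors all lay above 0, 18 of 18 against 74.8% of all members, with a median of 0.45. HSFA2D was at 10.9 and 13.0 FPKM against 10.8, 38.7 and 37.0, and HSF13 at 29.3 and 27.9 against 22.1, 89.9 and 72.5. In neither did Fe replicate 1 exceed the controls, and the log2 changes were 1.01 ± 0.47 and 0.86 ± 0.41 (adjusted p = 0.012 and 0.005 without that library). The groups separated in 3 of the 18 on the higher side, where they did in 13.6% of all members. HSF24 was 1 of these, at 10.3 and 10.8 FPKM against 22.9, 15.6 and 23.1, with Fe replicate 1 between the other Fe libraries. It passed no test.

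**Figure D5:**
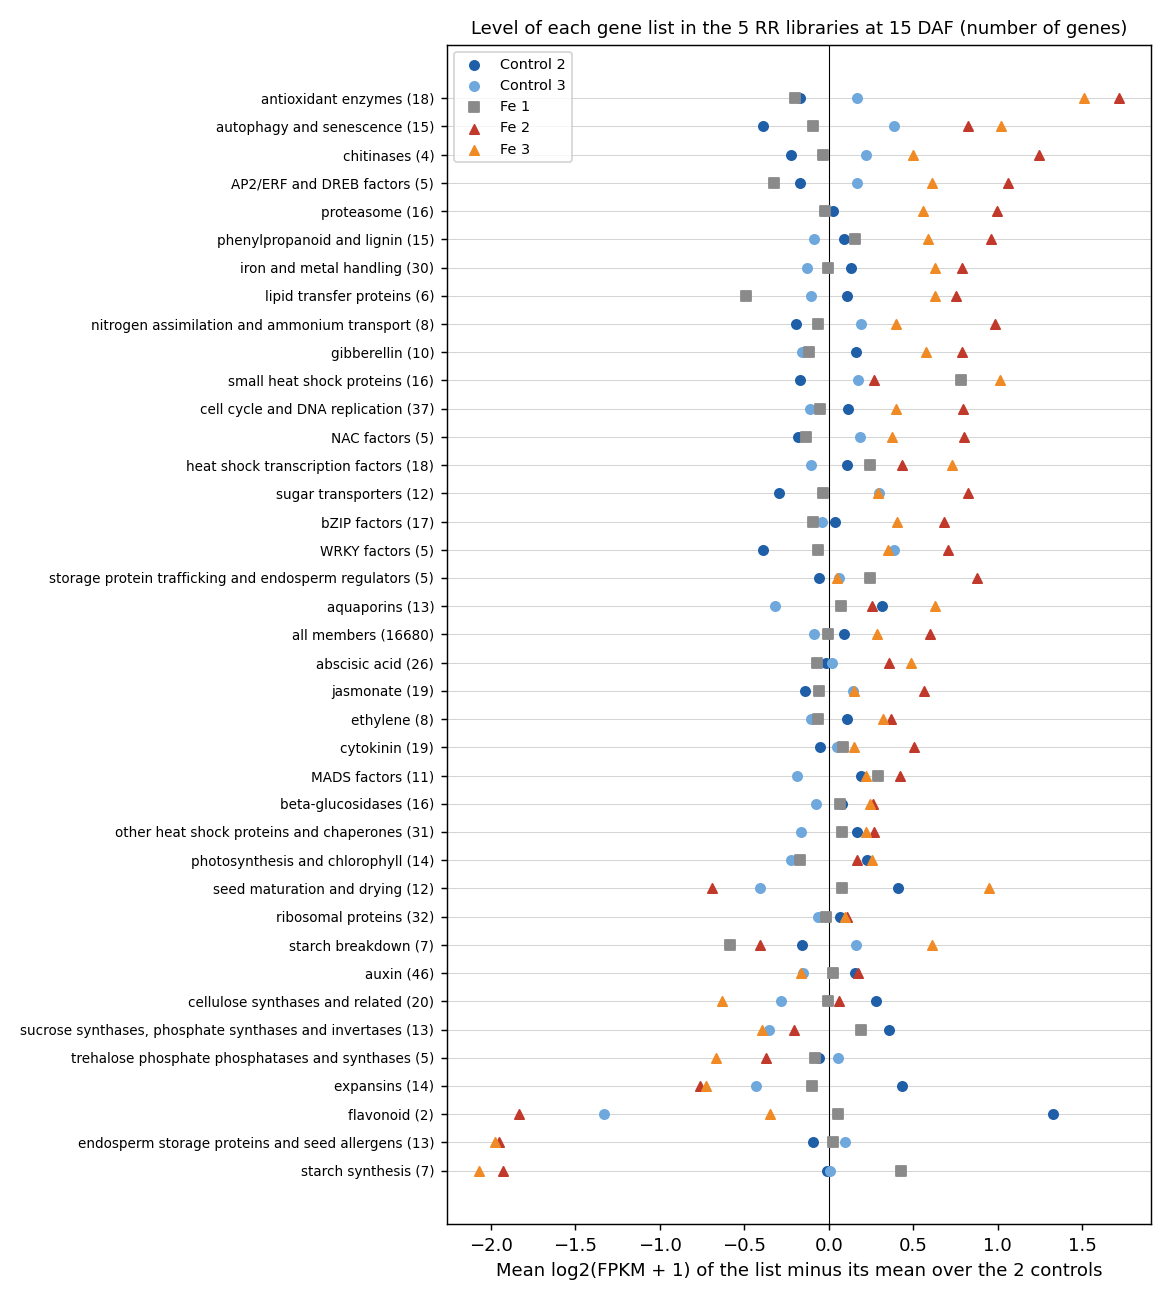
Mean log2(FPKM + 1) of each of 38 gene lists and of all members in each of the 5 RR libraries, minus the mean of the 2 controls, not centred on library medians. Fe replicates 2 and 3 lie farthest below the controls for starch synthesis and storage proteins and farthest above them for antioxidant enzymes, and Fe replicate 1 lies above the controls for small heat shock proteins.

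Hormone genes gave single changes within lists that were near the background. Of 26 ABA genes, 18 lay above 0 and 1 was higher at an unadjusted p below 0.05, against 74.8% and 7.65% of all members. That gene, OsSAPK3, is a protein kinase of the family that carries ABA signals. It was at 26.4 and 27.6 FPKM in the controls and 28.9, 80.1 and 97.8 in the Fe libraries, without overlap, though Fe replicate 1 lay just above the controls. Its change was 1.15 ± 0.49. OsSAPK6, of the same family, was at 11.4 and 38.8 against 9.39, 113 and 93.2 FPKM (log2 change 1.11 ± 0.77 with all libraries, adjusted p = 0.018 without Fe replicate 1).

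GAM1, the gibberellin-regulated GAMYB factor of the aleurone, was at 2.72 and 5.40 FPKM against 4.40, 23.0 and 11.03 (log2 change 1.25 ± 0.52 with all libraries, adjusted p = 0.017 without Fe replicate 1). COI1B, a jasmonate receptor, was at 7.25 and 7.51 against 9.31, 32.3 and 21.1 FPKM, with no overlap between groups (log2 change 1.23 ± 0.47). LOGL7, an enzyme family member that activates cytokinin, was at 2.11 and 4.77 FPKM against 4.19, 19.7 and 12.9 (log2 change 1.43 ± 0.58 with all libraries, adjusted p = 0.018 without Fe replicate 1). Fe replicate 1 lay between the controls for GAM1 and LOGL7 and above them for COI1B. The 2 genes named EIL1, ethylene-response factors with similar sequences between which reads may be split, were at 12.9 and 19.3 against 14.3, 56.3 and 48.3 (LOC4332697) and 15.2 and 23.4 against 14.4, 63.0 and 58.1 FPKM (LOC107276358). Their log2 changes were 1.06 ± 0.42 and 0.96 ± 0.45 (adjusted p = 0.0035 and 0.005 without Fe replicate 1). The 46 auxin genes split into 21 above and 25 below 0.

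Genes of the phenylpropanoid pathway, which feeds both lignin and flavonoids, lay above 0 in 12 of 15 members, against 74.8% of all members. The median was 0.52 (0.25 with centred libraries, 0.26 without Fe replicate 2 and 0.82 without Fe replicate 1). At an unadjusted p below 0.05, 3 were higher, where 7.65% of all members were. 4CL-3, a coumarate-CoA ligase, was at 2.33 and 5.01 FPKM in the controls and 4.48, 42.9 and 18.9 in the Fe libraries, with Fe replicate 1 between the controls. Its change was 1.91 ± 0.72 and 2.72 ± 0.61 without Fe replicate 1 (adjusted p = 0.01). HCT2, a hydroxycinnamoyl transferase, was at 2.09 and 2.09 against 2.78, 17.2 and 5.43 FPKM and separated the groups.

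Only 2 flavonoid genes with a short name were members. CHS, the chalcone synthase that opens the flavonoid pathway, was at 6.68 and 4.30 FPKM against 3.00, 1.43 and 1.04. All Fe libraries lay below both controls, with a log2 change of -1.24 ± 0.65 (adjusted p = 0.599 with all libraries and 0.097 without Fe replicate 1). Cfi, the next enzyme, chalcone isomerase, was at 39.0 and 0.453 against 12.1, 0.572 and 13.7 FPKM. Its controls lay far apart, and its log2 change of -0.18 ± 1.27 became 0.06 with a pseudocount of 0.1.

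Cell cycle and DNA replication genes lay above 0 in 32 of 37 members, where 74.8% of all members did. Their median of 0.39 was close to that of all members (0.12 with centred libraries, 0.15 without Fe replicate 2 and 0.62 without Fe replicate 1). OsRPA14, a subunit of the replication protein that coats single-stranded DNA, was at 6.35 and 7.22 FPKM against 8.47, 29.7 and 21.3, with all Fe libraries above the controls. Its change was 1.26 ± 0.43, and OsRPA32-2, another subunit, at 8.84 and 6.65 against 7.24, 36.6 and 25.6 FPKM, had one of 1.22 ± 0.44. H2B.5, a histone, was at 30.8 and 45.6 FPKM against 34.2, 164 and 108. The change of the histone was 1.16 ± 0.48. Both RPA genes and the histone passed on the higher side without Fe replicate 1 (adjusted p = 0.0058, 0.0023 and 0.0065). CYCD3-2 (LOC4346394), a D-type cyclin, went the other way at very low levels, 1.57 and 1.62 FPKM in the controls against 0.308, 0 and 0.107. Here Fe replicate 1 lay with the other Fe libraries. The gene met the rule through the controls alone. The log2 change was -1.20 ± 0.25, and -1.30 ± 0.24 without Fe replicate 1 (adjusted p = 0.0041). When all genes of the table were tested without a filter, its adjusted p with all libraries was 0.0074.

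Of the genes that act on cell walls, 12 of 14 expansins and 13 of 20 cellulose synthases and related genes lay below 0. The expansin median of -0.47 became -0.05 when control replicate 2 was left out, -0.96 when control replicate 3 was, and -0.80 when Fe replicate 1 was. The cellulose synthase median of -0.35 turned to 0.05 without Fe replicate 3, and was -0.23 without control replicate 2 and -0.62 without Fe replicate 1. CSLF6, which makes the mixed-linkage glucan of endosperm walls, was at 36.3 and 25.3 FPKM in the controls and 45.5, 5.00 and 1.74 under Fe treatment. Fe replicate 1 was the highest library. Its change was -1.78 ± 0.69 and -2.95 ± 0.44 without Fe replicate 1 (limma, adjusted p = 0.0012). CESA4, a secondary wall cellulose synthase, was at 19.0 and 28.7 against 21.9, 8.04 and 6.24 FPKM. The expansins EXP5 and EXP2, which loosen walls, were at 45.8 and 17.3 against 35.1, 6.14 and 5.39 and 8.91 and 16.99 against 10.3, 2.97 and 2.53 FPKM. The log2 changes of these 3 genes were -1.09 ± 0.56, -1.31 ± 0.72 and -1.30 ± 0.63 (adjusted p = 0.041, 0.028 and 0.039 without Fe replicate 1). AC2 (LOC4349087), an actin, was at 72.6 and 46.6 FPKM against 92.5, 4.42 and 4.18 with a log2 change of -2.10 ± 0.88 (without Fe replicate 1 -3.48 ± 0.58, adjusted p = 0.0023).

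Genes of autophagy and of the proteasome, both routes of protein breakdown, had log2 changes above 0. All 15 members of the autophagy and senescence list did, where 74.8% of all members did. The list's median was 0.42 (0.15 with centred libraries, 0.74 without control replicate 3 and 0.91 without Fe replicate 1), and that of all members 0.34. APG8A, APG8C and APG8D encode the protein that coats the autophagosome. They were at 57.5 and 59.0 against 55.3, 166 and 144, 68.6 and 91.2 against 81.2, 281 and 226, and 11.9 and 16.9 against 13.2, 39.2 and 43.2 FPKM. In each, Fe replicate 1 stood near or within the control range, and the log2 changes were 0.91 ± 0.41, 1.12 ± 0.55 and 0.95 ± 0.40 (adjusted p = 0.011, 0.028 and 0.0067 without that library). All 16 proteasome members lay above 0 as well, with a median of 0.52 (0.24 with centred libraries, 0.27 without Fe replicate 2 and 0.83 without Fe replicate 1). OsRPN5, a lid subunit, was at 55.1 and 51.7 FPKM against 55.6, 100.3 and 76.0. Without Fe replicate 1, 1 of the 16 passed on the higher side, where 13.0% of all members did.

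SGR, the stay-green protein that starts the breakdown of chlorophyll, was at 2.98 and 2.24 FPKM against 3.67, 9.60 and 16.2, with all Fe libraries above the controls. Its change was 1.40 ± 0.60. CAO, which makes chlorophyll b, was at 6.12 and 7.49 against 6.81, 25.0 and 25.6 FPKM, and GOS5, a subunit of photosystem I, at 0.213 and 2.50 against 0.579, 12.6 and 14.6. Their log2 changes were 1.17 ± 0.64 and 1.75 ± 0.78 (adjusted p = 0.045 and 0.0067 without Fe replicate 1), while the list of 14 photosynthesis and chlorophyll genes split evenly, 7 above and 7 below 0. Of 32 ribosomal protein genes 18 lay above 0, with a median of 0.07 (-0.20 with centred libraries, and -0.03 to 0.12 with each library left out). In 5 of the 32 all Fe libraries lay below the controls, where 2.67% of all members did, and in none did all lie above. RPL5B, at 143 and 112 FPKM against 117, 139.6 and 137, had a change of 0.04 ± 0.57 (-0.23 with centred libraries).

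Among the genes with a short name, those with the largest change, separated groups and an unadjusted p below 0.05 numbered 10 on the higher side, and on the lower side only 8 qualified. OsTIP1 (LOC4324303), an aquaporin of the vacuolar membrane, led the higher side. It was at 0.945 and 1.59 FPKM in the controls and at 3.43, 32.6 and 50.9 in the Fe libraries, so that Fe replicate 1 was above both controls and the others far above that. Its change was 3.14 ± 0.69 and 4.22 ± 0.47 without Fe replicate 1 (limma, adjusted p = 1.1e-04), and the mean at 20 DAF was 127 FPKM. The seed aquaporin OsTIP3 was at 1165 and 2004 against 1180, 3071 and 4778 FPKM and passed no test. OsPEX11-1, which acts in peroxisome division, was at 9.60 and 9.32 FPKM against 13.8, 51.5 and 70.7, and all Fe libraries lay above the controls. Its change was 1.87 ± 0.56.

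GST-I, a glutathione S-transferase, was at 0.341 and 0.14 FPKM against 1.26, 9.78 and 3.03. GRXS9, a glutaredoxin, was at 0.937 and 3.79 against 4.30, 14.8 and 11.1 FPKM, and AO-3 at 0.842 and 1.47 against 1.75, 11.4 and 9.45. For these genes Fe replicate 1 exceeded both controls, though by less than the other Fe libraries did. GATC, a subunit of an amidotransferase that charges transfer RNA, was at 2.62 and 1.31 FPKM against 4.83, 7.69 and 8.50. G1L5, an ALOG-family factor, was at 0.461 and 0 against 0.968, 3.54 and 2.60 FPKM. Their changes were 1.44 ± 0.42 and 1.40 ± 0.35, and the remaining genes on this side were OsVIT1.2, hsp17.9 and SGR, given above. GST-I and G1L5 met the rule through Fe libraries alone.

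On the lower side stood GLUA-3 and CYCD3-2 with 6 other genes. OsZHD4 (LOC4350177), a zinc finger homeodomain factor, was at 1.96 and 3.03 FPKM in the controls and 0.553, 0 and 0.502 in the Fe libraries. All Fe libraries were below FPKM 1, Fe replicate 1 included. Like CYCD3-2 and MET1, this gene met the rule through its controls alone, so its separation was set in advance. Its change was -1.38 ± 0.29. OsWOX5, a WUSCHEL-related homeobox factor, was at 4.83 and 4.46 FPKM against 3.95, 0.487 and 0.575, with a change of -1.32 ± 0.44, and here Fe replicate 1 stayed near the controls. FKII, a fructokinase, was at 24.8 and 16.1 FPKM against 12.5, 15.1 and 2.15. MET1, a maintenance DNA methyltransferase, was at 1.84 and 2.20 against 0.924, 0.121 and 0.069 FPKM. In both, the Fe libraries lay below the controls but spread widely among themselves. ALN, an allantoinase of purine breakdown, was at 2.99 and 2.19 FPKM against 1.46, 0.933 and 0.412, and KIN14D, a kinesin, at 1.82 and 1.61 against 1.32, 0.549 and 0.305. Every Fe library of both was below the controls. Their changes were -0.92 ± 0.34 and -0.70 ± 0.32.

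The 5 smallest unadjusted p of all members belonged to OsZHD4, CYCD3-2, OsTIP1 and a pair of genes without a short name. LOC4330171 was at 3.58 and 3.20 FPKM in the controls and 1.07, 0.056 and 0.084 in the Fe libraries, with a change of -1.72 ± 0.32. LOC4341945 was at 4.34 and 5.38 FPKM against 8.21, 33.6 and 36.4, with a change of 1.97 ± 0.44. In all 5 genes Fe replicate 1 lay outside the control range on the side of the other Fe libraries, and in all 5 it was the Fe library closest to the controls.

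The fit without Fe replicate 1 ranked other genes first. Beside CAT-A, OsTIP1, OsVIT1.2, BIP1, ISA, AC2, CSLF6, Maltase, GBSS-I and the glutelins above, it named ENODL1, an early nodulin-like protein, at 7.51 and 125 FPKM in the controls against 19.6, 664 and 838, and CH16, a chitinase, at 0.159 and 28.7 against 2.91, 144 and 51.7. The controls of both lay far apart, with replicate 3 the higher. The photoreceptor genes Osnph1a and PHOT1B, near copies between which reads may be split, were at 0.241 and 1.58 against 1.17, 26.7 and 19.6 and 0.273 and 1.55 against 0.645, 25.2 and 18.7 FPKM. Their changes with all libraries were 2.58 ± 0.74 and 2.39 ± 0.80, and both passed on the higher side without Fe replicate 1 (adjusted p = 4.3e-04 and 9.6e-04). MS (LOC9268154), malate synthase of the glyoxylate cycle, which turns stored oil into sugar precursors, was at 13.3 and 97.9 FPKM against 30.5, 371 and 366. FOR1 (LOC4343645), a leucine-rich repeat protein, was at 36.1 and 15.1 against 32.3, 289 and 229 FPKM, and OsCASPL1D1, a CASP-like membrane protein, at 2.64 and 19.0 against 3.28, 150.4 and 55.7. For these 3 genes Fe replicate 1 lay between the controls. Their log2 changes were 2.11 ± 0.87, 2.42 ± 0.77 and 1.96 ± 1.03, and their adjusted p without that library was 0.005, 0.0028 and 0.01. NF-Y4, an NF-Y transcription factor among the endosperm markers, was at 6.25 and 9.54 FPKM against 15.8, 66.2 and 18.6. It was higher in all Fe libraries, unlike the other endosperm markers, with a log2 change of 1.68 ± 0.86.

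Of 9 genes with qPCR primers, 6 were members here. LOC4341944 was at 19.0 and 196 FPKM in the controls and 46.9, 2120 and 735 in the Fe libraries. Its controls lay far apart, and its change was 2.75 ± 1.43. LOC4330775 was at 1.51 and 3.03 FPKM against 1.32, 27.4 and 14.4 (log2 change 1.66 ± 0.74), and LOC107276307 at 0.101 and 1.13 against 0.399, 4.29 and 6.56. LOC4336505 was at 3.08 and 1.57 FPKM against 2.42, 10.5 and 5.96. For all 4, Fe replicates 2 and 3 lay above the controls and Fe replicate 1 lay between or below them. The other members of the set had all Fe libraries below the controls, with LOC4333312 at 2.54 and 2.23 FPKM against 1.15, 0.05 and 0.423 and LOC4332719 at 1.83 and 1.78 against 1.29, 0.334 and 0.464. The study chose these genes, so they are no independent evidence of a direction.

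The difference between the Fe responses at 15 and 20 DAF was tested in the same fit. Of the 19774 genes tested, 3 passed at the DEG threshold, all members here (0.018% of members), with Fe above control at 15 DAF and below control at 20 DAF. They carry no short name and were chosen after their values were seen. At 15 DAF all 3 were below FPKM 1 in both controls, so they are members through Fe libraries alone. LOC112939045 was at 0.51 and 0.62 FPKM in the controls and 1.52, 5.32 and 7.26 in the Fe libraries at 15 DAF. At 20 DAF it was at 18.2, 15.3 and 8.64 FPKM in the controls and 0.218, 1.64 and 0.413 in the Fe libraries, so the groups separated in opposite directions. The difference of the log2 changes, 15 minus 20 DAF, was 4.83 ± 0.58 (limma, adjusted p = 0.0031). LOC107281151 and LOC107278380 had the same pattern, with differences of 3.86 ± 0.50 (adjusted p = 0.0044) and 3.91 ± 0.54 (adjusted p = 0.0068). At 15 DAF alone their changes of 1.27 and 1.60, like the 1.70 of LOC112939045, had an adjusted p of 0.595. None of the 3 passed with a pseudocount of 0.1, with the 11 RR libraries alone, or without control replicate 2, Fe replicate 2 or Fe replicate 3. The changes at 20 DAF were -3.13 for LOC112939045, -2.59 for LOC107281151 and -2.30 for LOC107278380. In size the changes at 20 DAF were thus larger than those at 15 DAF in all 3 genes. At an unadjusted p below 0.05 the difference, 15 minus 20 DAF, was positive in 610 members (3.66%) and negative in 123 (0.737%), together 4.39% of members.

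At the edge of the rule, OsPIN5b, an auxin transporter, entered with 0.451, 1.004, 0.411, 0 and 1.445 FPKM in control replicates 2 and 3 and Fe replicates 1, 2 and 3. EXLB1, an expansin-like gene, stayed out with 0.572, 0.348, 0.677, 1.803 and 0.985 FPKM. Of the 16680 members, 12643 were at FPKM 1 or more in all 5 libraries. Another 647 reached that level in Fe replicates 2 and 3 alone and 63 in the controls alone, and 15624 met the same rule at 20 DAF. By that definition the 63 separate the groups, and the 647 separate Fe replicates 2 and 3 from the controls. They are part of the counts of separated members above, and their separation is no evidence of a response.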

How the data were processed

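Grain RNA was sequenced from poly(A)-selected libraries. The authors used HISAT2 for alignment to the rice genome IRGSP-1.0, assembled transcripts with StringTie and deposited FPKM values per gene and library. The tools' versions are not given in the sources used here. FPKM keep no counts, so no counting interval can be given and the DESeq2 test of the authors could not be repeated.

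For each comparison limma 3.58.1 (R 4.3.3) was run on log2(FPKM + 1). It fitted the group means of 17 libraries with group-wise variance factors (arrayWeights) and a trended eBayes prior. The 19774 genes that reached FPKM 1 in 2 libraries or more were tested, with two-sided p adjusted over all of them by Benjamini-Hochberg. For DEGs the limits were 0.01 for the adjusted p and 1.5 for the fold change. The code was tested on simulated data. A RefSeq table of assembly ASM3414082v1 held 27491 of 28737 annotation IDs and a short name for 2847 genes, 1966 of them members. Promoters were not searched for motifs, as no sequence was at hand.

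Genes were named by a rule. It took the 10 largest changes in each direction among genes with a short name, separated groups and an unadjusted p below 0.05, the same numbers in the fit without Fe replicate 1 at an adjusted p below 0.05, up to 4 of each list by level and up to 4 by p (given in part), the 5 smallest p of all, and the 9 genes with qPCR primers. The members and lists were chosen with earlier results of these data known. Alternatives covered the pseudocount, the filter, the libraries fitted, the variance factor, the scaling, a replicate block and each library left out.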

Additional observations from a re-analysis of the deposited data

Results flagged for a closer look

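For 3 genes the Fe response at 15 DAF differed from that at 20 DAF by a test of the difference itself (limma, adjusted over 19774 genes). The difference of the log2 changes, 15 minus 20 DAF, was 4.83 for LOC112939045, 3.86 for LOC107281151 and 3.91 for LOC107278380. The last of these was at 0.28 and 0.06 FPKM in the controls and 0.771, 4.55 and 3.52 in the Fe libraries at 15 DAF, and at 9.21, 8.23 and 4.33 in the controls and 0.193, 1.202 and 0.587 in the Fe libraries at 20 DAF. LOC107281151 was at 0.541 and 0.494 against 1.16, 2.75 and 5.06 FPKM at 15 DAF, and at 10.95, 8.40 and 4.76 against 0.16, 0.762 and 0.463 at 20 DAF. At both stages, in each gene, every Fe library lay outside the control range, above it at 15 DAF and below it at 20 DAF. The genes were picked by the test on these same values and are members through Fe libraries alone. Their separation is therefore no evidence beyond that test. In the RefSeq assembly ASM3414082v1 the genes LOC107281151 and LOC112939045 are neighbours. Without Fe replicate 1 the difference for LOC107278380 had an adjusted p of 2.0e-04 and that for LOC107281151 of 2.9e-04 (limma), both conditional on dropping that library. At the DEG threshold none of the 3 passed with a pseudocount of 0.1, with no filter or with the 11 RR libraries alone. None passed without Fe replicate 2 or without Fe replicate 3 either.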

How the results depend on the processing

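Which library was left out decided the number of DEGs at 15 DAF. Leaving out each library in turn gave 0 to 480 DEGs higher and 0 to 186 lower. By an unadjusted p below 0.05, it gave 97 to 5183 genes higher and 43 to 1037 lower. The highest counts came without Fe replicate 1, and only leaving out control replicate 3 gave other DEGs, 17 lower. With Fe replicates 2 and 3 both left out, a setting chosen after seeing the data, no DEG was found, 149 genes were higher and 110 lower by the unadjusted p, and the median change over all genes tested was -0.003 against 0.286. In these fits an arm of 1 library has no spread of its own and is assumed to vary like the other libraries, so the lack of calls says nothing of Fe replicate 1 itself.

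The other settings with values changed by more than 1.5 times are these. At an unadjusted p below 0.05 the genes higher and lower were 724 and 248 with the 5 libraries alone, 2425 and 524 without a variance factor, 673 and 779 with centred libraries and 568 and 772 with quantile normalization, against 1300 and 314. The lower count was 581 with no filter and 208 at an FPKM of at least 5. Without a filter 2 genes were DEGs, both lower, CYCD3-2 and NewGene_4649 (named after its values were seen). Differences between the Fe responses at 15 and 20 DAF, 3 positive and none negative, became 0 positive with a pseudocount of 0.1, with no filter, with the 11 RR libraries alone and with Fe replicates 2 and 3 left out, and 1 positive at an FPKM of at least 5, with centred libraries and with quantile normalization. With no filter 1 was negative. Leaving out each library gave 0 to 22 positive and 0 to 27 negative.

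Control and Fe libraries share only replicate numbers 2 and 3, and nothing says that the numbers pair them. Their deviations from the group means correlated at -0.301 for number 2 and 0.231 for number 3. With a replicate block Fe replicate 1 has no partner and carries no weight, as if left out, and the fit gave 262 DEGs higher and 151 lower, 5559 and 1230 genes at an unadjusted p below 0.05, and differences between stages in 8 genes positive and 9 negative. The block also turned the change of EM to -0.246.

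Of 109 named genes followed through the settings, 5 changed sign under some setting. RA14 was at 0.184 with quantile normalization. EM was at -0.237 with centred libraries and -0.245 with quantile normalization, and from -0.36 to 0.709 with a library left out. Cfi was at 0.057 with a pseudocount of 0.1 and from -2.574 to 2.207 with a library left out. RPL5B was at -0.23 with centred libraries, -0.365 with quantile normalization and -0.132 to 0.215 with a library left out, and OLE18 at -0.07 to 0.786. The cause of these changes was not tested. Without Fe replicate 1, 82 of the 109 genes passed an adjusted p of 0.05 that none passed with all libraries, and with the replicate block 80 did. Over all members, 2627 (15.7%) passed without Fe replicate 1. The naming rule took many of the 109 genes by that fit or by a small p. Their higher share was therefore set by the choice and is no evidence of a response. Read depth is unknown, so genes near FPKM 1 have an error that cannot be separated into counting and biology.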
